A study of Homo sapiens with 2 samples.

Results

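The genes described here are the homeobox genes of the HOXA, HOXB, HOXC and HOXD clusters. They were chosen by symbol alone, as every gene named HOXA, HOXB, HOXC or HOXD plus a number with a log2 ratio on at least 1 of 2 arrays. Of 38 HOX genes named on the array, represented by 39 probes, 33 met this rule, out of 10750 named genes with a value. They were 8 HOXA, 10 HOXB, 8 HOXC and 7 HOXD genes. HOXA2, HOXA3, HOXC8, HOXD3 and HOXD12 had a probe but no value on either array, and 27 HOX genes had a value on both.

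HOX genes encode transcription factors that bind DNA through a homeodomain and give cells their position along the body axis in the embryo. In each cluster the genes stand in a row in the same order as their paralog group numbers, and low-numbered genes are used further towards the head than high-numbered ones. Genes with the same number in different clusters are paralogs and are the closest relatives in sequence. HOX expression patterns persist in adult cells and in cell lines as a record of where the tissue came from. Polycomb proteins hold the clusters silent, MLL proteins hold them active, retinoic acid induces the low-numbered end, and PBX and MEIS proteins bind DNA together with HOX proteins.

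RNA came from human mesothelioma lines, tumour cells of the lining of the chest. On the depletion array, ACC-MESO1 cells depleted of CD26, the cell surface peptidase encoded by DPP4, were set against control ACC-MESO1 cells (n = 1 array). On the transfection array, MSTO-211H cells carrying CD26 in a pLNCX2 vector were set against control MSTO-211H cells (n = 1 array). The depleting agent is an siRNA in the series' design text and an shRNA in the treatment protocol, and what the control cells received is not stated in the labels; whether transfected cells were a clone or a pool is not stated either. Both lines grew in the same serum-containing medium. Control RNA carried Cy5 and manipulated RNA Cy3 on both arrays, with no dye swap, so a dye effect particular to a gene and a change of that gene in both lines cannot be told apart. The 2 comparisons used different cell lines and different controls.

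Every value below is a log2 ratio of manipulated over control cells, and an array's median over its probes was 0. There was no replicate, so no p-value is given, and precision is limited by having 1 array per comparison. The nearest thing to an error is the pooled SD between different probes of a gene, 0.42 on the depletion array (566 genes) and 0.45 on the transfection array (471 genes). Ratios give no level, so a HOX gene that is strongly used and one near background cannot be told apart, nor can fewer expressing cells and less RNA per cell. HOX paralogs resemble each other in the homeobox, and cross-hybridisation between them was not tested. DPP4, the gene targeted, stood at -3.92 after depletion and 5.51 after transfection, in the direction of the labels. Of 12 mesothelial markers, 10 had a value on each array, with medians of 0.03 and -0.01, and marker lists for fibroblasts, lymphocytes, myeloid and endothelial cells had medians from -0.07 to 0.47 after depletion and from -0.49 to -0.01 after transfection, over 3 to 8 measured genes. The marker genes past 2-fold were ITLN1 of mesothelium (1.38 after depletion), MFAP5 of fibroblasts (1.96 after depletion), the mesothelial MSLN (-1.31) and KRT18 (-1.16) after transfection, and CD3E of lymphocytes (1.88 after transfection). The part of these markers in the results was not tested.

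As a family the HOX genes sat in the middle of both arrays. Their median log2 ratio was -0.01 over 29 genes after CD26 depletion, against 0.01 over all 10347 named genes. After CD26 transfection it was -0.06 over 31 genes, against 0.01 over all 9359. Centring on ribosomal protein genes, which shifted the depletion array up by 0.31 and the transfection array up by 0.23, turned the family medians positive, to 0.30 and 0.17, beside 0.32 and 0.24 over all genes. The SD over HOX genes was 0.42 after depletion and 0.65 after transfection, beside 0.48 and 0.50 over all genes. The median absolute log2 ratio of HOX genes was 0.23 and 0.21, below the 0.249 and 0.254 over all genes. The values farthest from 0 in transfected MSTO-211H cells were those of HOXA7, HOXC11 and HOXC13.

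HOXA7, a central gene of the HOXA cluster, had the lowest value of the family after transfection and was lower than control in both lines. Its single probe gave -2.34 in CD26-transfected MSTO-211H cells, a 5.05-fold lower signal, and ranked 5 from the lowest of 9359 genes. In CD26-depleted ACC-MESO1 cells it was -0.83, or 1.78-fold lower, at the 2.87th percentile of that array. Both values were larger than the pooled SD between probes, and both kept their sign when centred on ribosomal protein genes (-2.11 and -0.52). The measured genes beside it did not share this value. HOXA5 had -0.11 after depletion and -0.18 after transfection, HOXA6 had 0.10 after depletion only, and HOXA9 stood at -0.46 and 0.46, the latter the mean of 2 probes that disagreed.

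The 250 bases before HOXA7 are shown because it had the value farthest from 0 of the family, with those before its measured neighbour HOXA9 and before the shared start of HOXC4 and HOXC5 for comparison. The HOXA9 probe read on both arrays lay below 0 on both, like HOXA7. They are from RefSeq on GRCh38.p14, 5′ to 3′ along the gene, with every CpG dinucleotide in capitals. HOXA7 is at chr7:27156676-27156925 on the minus strand, HOXA9 at chr7:27165538-27165787 on the minus strand, and HOXC4 with HOXC5 at chr12:54016638-54016887 on the plus strand.
HOXA7: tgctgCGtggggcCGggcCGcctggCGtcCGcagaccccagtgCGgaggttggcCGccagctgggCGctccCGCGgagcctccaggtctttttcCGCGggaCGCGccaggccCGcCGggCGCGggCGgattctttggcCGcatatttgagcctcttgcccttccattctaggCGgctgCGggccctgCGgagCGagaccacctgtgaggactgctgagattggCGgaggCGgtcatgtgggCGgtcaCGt
HOXA9: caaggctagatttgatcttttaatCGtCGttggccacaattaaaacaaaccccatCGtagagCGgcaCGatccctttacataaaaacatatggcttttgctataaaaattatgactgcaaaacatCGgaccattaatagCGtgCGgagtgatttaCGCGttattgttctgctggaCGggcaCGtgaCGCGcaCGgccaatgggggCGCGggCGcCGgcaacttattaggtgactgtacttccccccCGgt
HOXC4 and HOXC5: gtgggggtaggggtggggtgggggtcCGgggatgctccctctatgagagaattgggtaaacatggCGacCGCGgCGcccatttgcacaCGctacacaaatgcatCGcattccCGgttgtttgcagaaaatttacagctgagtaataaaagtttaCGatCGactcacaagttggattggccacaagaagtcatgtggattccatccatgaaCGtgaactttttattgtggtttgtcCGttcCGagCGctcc
The stretch before HOXA7 held 28 CpG and was 70.8% G and C. Before HOXA9 there were 20 CpG in 48.8% G and C, and before HOXC4 and HOXC5 there were 14 in 50.8%.

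The RefSeq promoter table held 300-base windows, 250 before and 50 after a start, for 16 of the 33 HOX genes, in 16 windows. HOXA10 had 2 windows, while HOXC4 and HOXC5 shared 1. Their median CpG number was 24.5, from 4 at HOXD4 to 44 at HOXA13, beside 21 over 22078 windows of protein-coding genes. Read on both strands, the letters CCAAT occurred in 13 of the 16 HOX windows and in 34.7% of all windows. TATAAA, the core of a TATA box, occurred in 4 HOX windows and in 9.5% of all. The spaced motif TGATNNAT, which PBX and HOX proteins bind together, was in the windows of HOXB1 and HOXD11 and in 5.21% of all. AGGTCA, a core site of nuclear receptors such as those for retinoic acid, was in 0 HOX windows and in 11.9% of all. A match is only a run of letters, and these windows are not independent of each other within a cluster.

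**Figure D1:**
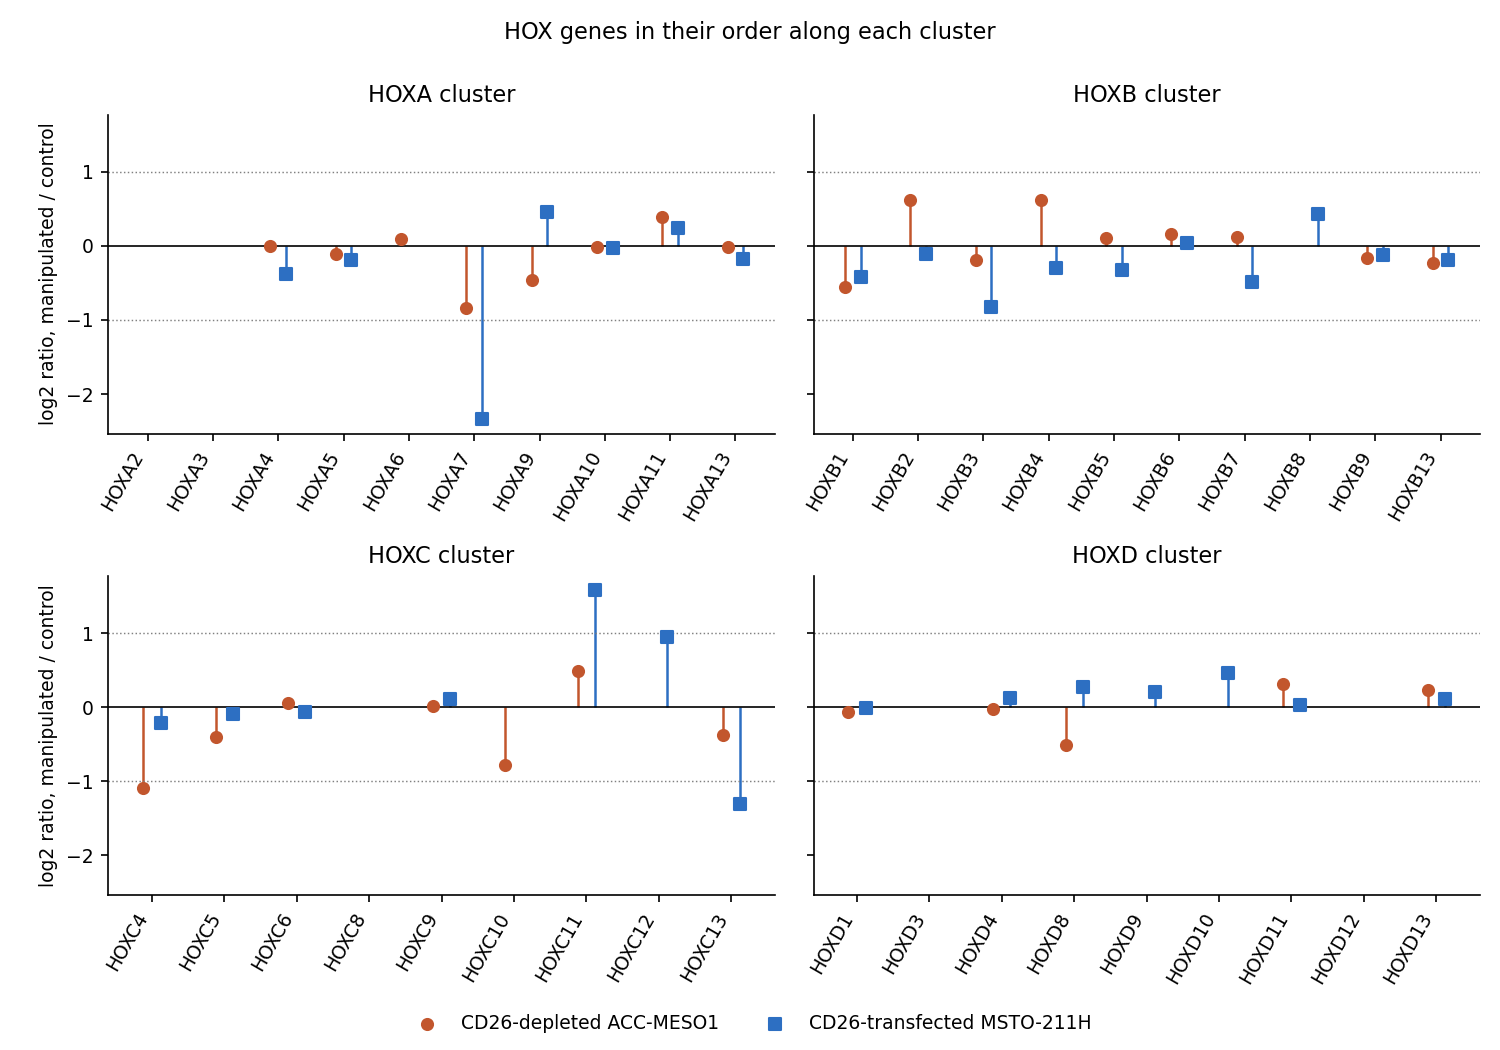
Log2 ratios (vertical axis, manipulated over control cells) of HOX genes in their order along each cluster, from the low-numbered end (left), on the depletion array (circles) and the transfection array (squares), 1 array each and no error bars; dotted lines mark 2-fold and a gene with no symbol had no value. HOXA7 at -2.34 stands apart from its measured neighbours, and the high-numbered end of HOXC holds both the highest and the second lowest value after transfection, 1.58 and -1.30.

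Few HOX genes reached 2-fold on either array. After depletion 0 of 29 were at least 2-fold higher, where the share over all genes was 3.31%, and 1 was at least 2-fold lower, where it was 1.56%. That gene was HOXC4. After transfection 1 of 31, HOXC11, was at least 2-fold higher, beside 4.09% of all genes, and HOXA7 and HOXC13 were at least 2-fold lower, beside 1.37%. At a log2 ratio of 0.5 or more in size, 2 HOX genes were higher and 5 lower after depletion, beside 12.8% and 9.8% of all genes. The corresponding numbers after transfection were 2 and 3, beside 13.1% and 9.4%. The HOX counts lie within about 2 genes of these background shares, and nothing is read from them. Centred on ribosomal protein genes, 0 HOX genes were past 2-fold after depletion, and 2 were higher and 2 lower after transfection, while over all genes 751 were higher and 46 lower after depletion and 655 and 57 after transfection, instead of 342 and 161, and 383 and 128. Values beyond the pooled SD between probes were found for 9 HOX genes after depletion and 8 after transfection, and for 29.0% and 26.5% of all genes.

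In the HOXA cluster, 6 of 8 genes lay below 0 after depletion and 5 of 7 after transfection, with medians of -0.01 and -0.18. Over all genes, 5042 of 10347 and 4612 of 9359 lay below 0. Among the 6, HOXA4, HOXA10 and HOXA13 were at -0.0048, -0.01 and -0.01, far inside the pooled SD of 0.42. Centred on ribosomal protein genes, 2 of 8 and 2 of 7 lay below 0, beside 1976 of 10347 and 2414 of 9359 genes. The medians were then 0.30 and 0.05. With each chromosome centred on its own median the transfection median was -0.0068. HOXA4, expressed in the embryo's hindbrain and neck region, had 0.00 and -0.38. HOXA9, a regulator of blood stem cells that is often active in leukaemia, had 2 probes that disagreed. On the transfection array they gave 1.12 and -0.20, so its mean of 0.46 depends on which is read; on the depletion array only the second probe had a value, -0.46. HOXA10, needed in the uterus, had -0.01 and -0.03. HOXA11, which patterns the limb and uterus, had the highest HOXA value after depletion, 0.39, and stood at 0.24 after transfection. HOXA13, the limb and hindgut gene at the cluster's end, had -0.01 and -0.18. Leaving HOXA7 aside, no HOXA gene had a mean past 0.5 on either array.

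The HOXB median lay on different sides of 0 in the 2 lines, but not every gene did. After depletion 5 of 9 genes were above 0, beside 51.3% of all genes, with a median of 0.11. After transfection 8 of 10 were below 0, beside 4612 of all 9359 genes. Their median was -0.24, which became -0.01 when centred on ribosomal protein genes. HOXB2, HOXB4, HOXB5 and HOXB7 differed in sign between the arrays. HOXB1, HOXB3, HOXB9 and HOXB13 were below 0 on both, and HOXB6 was above 0 on both. HOXB2 and HOXB4 were the highest HOX genes in depleted ACC-MESO1 cells, at 0.62 each, and had -0.10 and -0.30 in transfected MSTO-211H cells. HOXB4 is known for expanding blood stem cells, and HOXB2 acts in the hindbrain. HOXB1, a hindbrain gene at the low-numbered end, was lower in both, at -0.55 and -0.42.

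Further along HOXB, HOXB3 had the lowest value of the cluster after transfection, -0.82 or 1.76-fold lower, and -0.19 after depletion. HOXB5 went from 0.11 after depletion to -0.33 after transfection. HOXB7, which is active in several carcinomas, had 0.12 and -0.49. Each of these rests on 1 probe. HOXB6 had 0.16 and 0.04, HOXB9 had -0.16 and -0.12, and HOXB13, a prostate and hindgut gene set apart from the rest of the cluster, had -0.24 and -0.19. HOXB8 had a value on the transfection array alone, 0.44, the highest of HOXB there.

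HOXC held the most extreme values besides HOXA7. Its median was -0.38 over 7 genes after depletion and -0.06 over 7 after transfection. On each array 4 of 7 were below 0, beside 5042 of 10347 and 4612 of 9359 genes. The depletion median was inside the pooled SD of 0.42. It was -0.18 over genes measured on both arrays, and -0.07 when centred on ribosomal protein genes, beside 0.32 over all genes. HOXC4 was the lowest HOX gene in depleted ACC-MESO1 cells, at -1.09 or 2.14-fold lower, at the 1.12th percentile of the array, and stood at -0.21 in transfected MSTO-211H cells. HOXC5, whose transcripts can begin at the start it shares with HOXC4, in the window printed with that of HOXA7, had -0.41 and -0.10. HOXC6, next along the cluster, had 0.06 and -0.06. The values of these 3 neighbours thus went from lowest at HOXC4 to about 0 at HOXC6 after depletion. When centred on ribosomal protein genes, HOXC4 had -0.79 after depletion and was no longer past 2-fold.

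At the high-numbered end, HOXC11, a gene of the hind body and limb, was the highest HOX gene after transfection, at 1.58 or 2.98-fold, and had 0.49 after depletion. HOXC12, beside it, had 0.95 after transfection and no value after depletion. HOXC13, the last gene of the row and a regulator of hair keratins, was 2.47-fold lower after transfection, at -1.30, and had -0.38 after depletion. HOXC11 and HOXC13 each had the same sign in both lines. The depletion value of HOXC13 was inside the pooled SD of 0.42, and was -0.07 when centred on ribosomal protein genes. HOXC10 had -0.78 after depletion and no value after transfection, and HOXC9 stayed near 0 on both arrays, at 0.01 and 0.11. The neighbours HOXC12 and HOXC13 thus lay 2.25 apart on the log2 scale after transfection.

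HOXD values were the closest together. After transfection its 7 genes ranged from -0.01 to 0.46 (SD 0.16), 6 of them above 0, beside 50.7% of all genes. Their median was 0.12, which became -0.0088 when each chromosome was centred on its own median. HOXD10, a limb and spinal cord gene, was the highest at 0.46, followed by HOXD8 at 0.28 and HOXD9 at 0.21. After depletion 5 genes had a value, with a median of -0.02. HOXD8 was the lowest, at -0.51, and so differed in sign between the lines. HOXD11 had 0.32 after depletion and 0.03 after transfection, and HOXD13, a digit gene, had 0.23 and 0.11. HOXD1 (-0.06 and -0.01) and HOXD4 (-0.02 and 0.12) were near 0 on both arrays. No HOXD gene was past 2-fold.

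No steady slope ran along any cluster. Spearman's rho between log2 ratio and position, over the genes of a cluster and given only as a description, was 0.07 for HOXA, -0.10 for HOXB, 0.46 for HOXC and 0.60 for HOXD after depletion, over 8, 9, 7 and 5 genes. After transfection it was 0.57, 0.37, 0.21 and 0.11, over 7, 10, 7 and 7 genes. Genes of a cluster share an array and are not replicates. Position by chromosome order and by paralog number is the same ranking, so both have to give the same rho. Steps between neighbouring measured HOX genes had a median size of 0.45 after depletion (25 steps) and 0.37 after transfection (27 steps). Between other neighbouring genes of the genome it was 0.39 and 0.37.

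By region of the clusters, the transfection array went from lower to higher medians. Its 4 measured genes of paralog groups 1 to 3 were all below 0, with a median of -0.26, and 3 of these 4 are HOXB genes. In paralog groups 4 to 8, 9 of 13 were below 0, with a median of -0.18. Among paralog groups 9 to 13, 9 of 14 were above 0, with a median of 0.11, where 50.7% of all genes were above 0. HOXC12, HOXD9 and HOXD10 among them, and HOXB8 in groups 4 to 8, had a value on the transfection array alone. All were above 0, as were 78.4% of the 403 named genes measured on that array alone. The higher HOXA9 probe, at 1.12, also had a value there only. How far the order of the medians rests on these was not tested. Centred on ribosomal protein genes the medians were -0.03, 0.05 and 0.34, in the same order, with 2 of the 4 low-numbered genes below 0. On the depletion array they were -0.12, 0.00 and -0.01 as deposited.

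**Figure D2:**
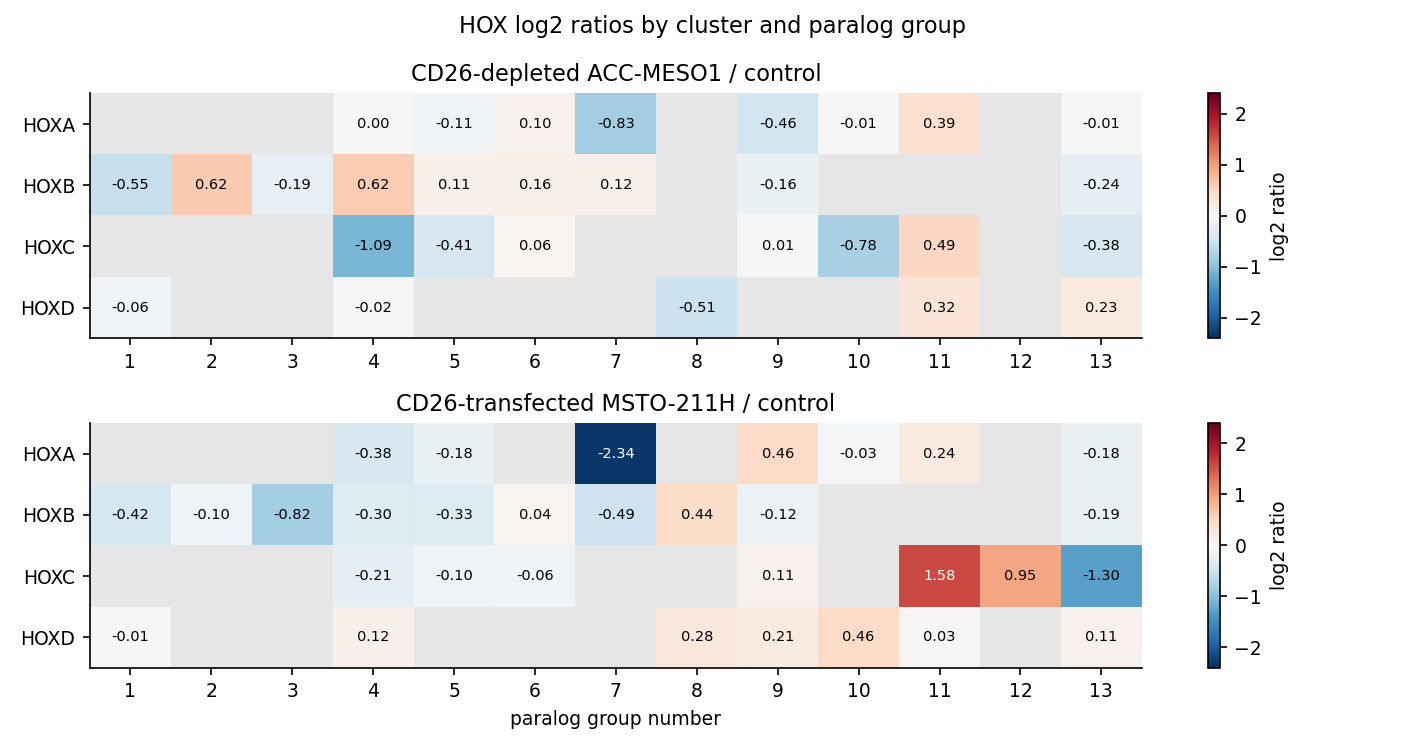
Log2 ratios (colour scale and printed values, manipulated over control cells) of each HOX gene by cluster (rows) and paralog group number (columns) on the depletion array (upper panel) and the transfection array (lower panel), 1 array each; grey cells have no value. Paralog group 11 is above 0 in every measured cell of both panels, down to 0.03 for HOXD11 in the lower panel. Paralog group 7 holds the lowest value, -2.34.

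Paralogs of some numbers had like values and others did not. In group 11, HOXA11, HOXC11 and HOXD11 were all above 0 on both arrays, from 0.32 to 0.49 after depletion and from 0.03 to 1.58 after transfection. HOXA11 and HOXD11 were inside the pooled SDs between probes, 0.42 and 0.45, on both. The 3 measured genes of group 6 were within 0.11 of each other after depletion. In group 4 the range was 1.71 after depletion, from HOXC4 (-1.09) to HOXB4 (0.62), with HOXA4 and HOXD4 near 0. In group 7 the range was 1.85 after transfection, from HOXA7 (-2.34) to HOXB7 (-0.49), both of them below 0 there. The median difference between paralogs was 0.30 after depletion (27 pairs) and 0.29 after transfection (29 pairs). Genes of the same cluster differed by 0.42 (95 pairs) and 0.34 (108 pairs), and HOX genes that shared neither differed by 0.40 and 0.45. Pairs share genes, and a probe that also binds a paralog would make paralogs look alike; that was not tested.

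Set against each other, the 2 arrays gave HOX genes the same sign more often than opposite signs. CD26 was lowered in one line and raised in the other, so a gene that goes with CD26 would have opposite signs. Of 27 HOX genes on both arrays, 8 had opposite signs, while 46.9% of 8956 genes did. A further 13 were below 0 on both arrays, against 26.5% of all genes, and 6 were above 0 on both. When centred on ribosomal protein genes, 3 of 27 were below 0 on both and 9 had opposite signs, beside 5.38% and 33.8% of all genes. With each chromosome centred on its own median, 13 of 27 were below 0 on both and 11 had opposite signs. The shares over all genes with that centring were not counted. The 8 with opposite signs were HOXB2, HOXB4, HOXB5, HOXB7 and HOXC6, higher after depletion and lower after transfection, and HOXA9, HOXD4 and HOXD8, lower after depletion and higher after transfection. For HOXA9 this depends on the probe: the one read on both arrays gave -0.46 and -0.20, and with it alone 7 genes had opposite signs and 14 were below 0 on both. None of the 8 had a mean past 2-fold on either array.

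**Figure D3:**
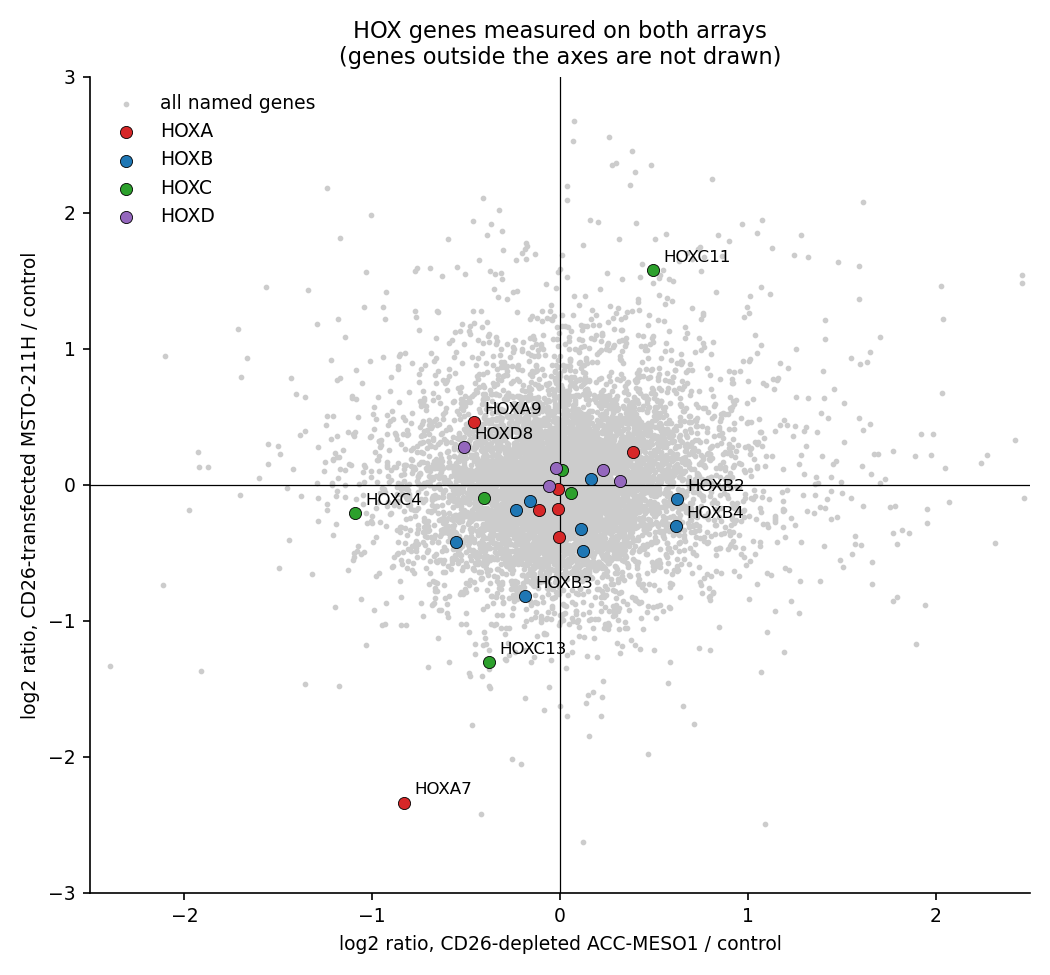
Log2 ratio after CD26 transfection in MSTO-211H cells (vertical axis) against log2 ratio after CD26 depletion in ACC-MESO1 cells (horizontal axis) for 27 HOX genes, coloured by cluster, over all genes measured on both arrays (grey). HOXA7 and HOXC13 lie at the lower left and HOXC11 at the upper right, so the HOX genes farthest from 0 after transfection had the same sign in both lines. HOXC13, at -0.38 after depletion, is inside the pooled SD between probes there, 0.42.

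Across those 27 genes Pearson's r between the arrays was 0.45 and Spearman's rho 0.30, beside 0.06 and 0.08 over all genes. The points share the 2 arrays and their dye orientation, and the r is a description. It rests on few genes. Without HOXA7 it was 0.28, and without HOXA7, HOXC11 and HOXC13 it was 0.02. HOXA7 and HOXC11 were the HOX genes at least 1 log2 unit apart between the arrays, 2 of 27 where 9.7% of all genes were. The value after transfection minus that after depletion was -1.504 for HOXA7 and 1.085 for HOXC11.

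Among the partners of HOX proteins, MEIS1 had opposite signs on the 2 arrays. MEIS1, a cofactor that binds DNA beside HOXA9 and PBX proteins, had -1.01 in the CD26-depleted line and 0.91 in the CD26-transfected line, on 1 probe. Lower after depletion and higher after transfection was the pair of signs of 22.9% of 8956 genes. MEIS1 was the only cofactor of 8 measured past 2-fold after depletion, where 1.56% of all genes were at least 2-fold lower. After transfection 0 of 7 were past it, where 4.09% of all genes were at least 2-fold higher and 1.37% lower. PBX3 had 0.38 and -0.82, the opposite order. PBX4 (0.40 after depletion) was the highest cofactor there. The medians of the 9-gene cofactor list were -0.07 and -0.21, or 0.24 and 0.02 when centred on ribosomal protein genes, where MEIS1 was past 2-fold after transfection instead of after depletion.

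The chromatin regulators of the clusters gave medians near 0. Of the Polycomb list, 21 genes after depletion had a median of -0.01 and 20 after transfection a median of -0.03. RYBP, a subunit of Polycomb complex PRC1, was the member past 2-fold, at 1.02 after depletion, where 3.31% of all genes were at least 2-fold higher. It had -0.10 after transfection. EZH2, the methyltransferase that sets the Polycomb mark, had 0.30 and -0.46, the lowest of the list after transfection, and PHC3 was the highest there at 0.76. In the MLL and trithorax list of 14 measured genes the medians were 0.05 and -0.16, the latter 0.07 when centred on ribosomal protein genes. After transfection KDM6B, a demethylase that removes the Polycomb mark, was 1.93 and MLLT10 was 1.17, beside 0.40 and 0.13 after depletion. They were the 2 of 14 past 2-fold on the transfection array, where 4.09% of all genes had a rise of that size. On the depletion array none of the list was past 2-fold, from MEN1 (-0.43) to ASH1L (0.54). There, 3.31% of all genes lay that far above 0 and 1.56% that far below it. With ribosomal centring ASH1L (1.17) also passed 2-fold after transfection, making 3 of 14, beside 655 of 9359 genes. KMT2A, which encodes MLL itself, had 0.33 and -0.19 as means of 2 probes.

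Retinoic acid genes, which act upstream of the low-numbered HOX genes in the embryo, were below 0 in 12 of 17 cases after transfection and in 8 of 15 after depletion. Over all genes 4612 of 9359 were below 0 after transfection and 5042 of 10347 after depletion. The medians of the retinoic acid genes were -0.32 and -0.12 in that order. Centred on ribosomal protein genes, 9 of 17 were below 0 after transfection, with a median of -0.09, and 5 of 15 after depletion, with a median of 0.19. With that centring 2414 of 9359 and 1976 of 10347 of all genes were below 0. DHRS3, which reduces retinal, had -2.42 and the retinol dehydrogenase gene RDH5 had -1.27 after transfection, beside -0.42 and 0.20 after depletion. These were 2 of 17 after transfection, where 1.37% of all genes were at least 2-fold lower. Of the receptors, RARB (-0.96), RARG (-0.57), RXRA (-0.56) and RARA (-0.22) were below 0 after transfection, and RXRB was the highest member on both arrays, at 0.96 and 0.84. As deposited, 0 genes of the list were at least 2-fold higher on either array, beside 3.31% and 4.09% of all genes after depletion and transfection. RDH11 was the lowest after depletion, at -0.69.

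Homeobox genes outside the clusters and ordinary genes next to them were measured for comparison. Of the list of 47 other ANTP-class homeobox genes, the class that includes HOX, 30 had a value after depletion and 24 after transfection, with medians of -0.09 and -0.06. DLX2 was past 2-fold after depletion (-1.19, with 0.77 after transfection), where 1.56% of all genes were at least 2-fold lower. MSX2 was past it after transfection (1.65, with -0.43 after depletion), where 4.09% were at least 2-fold higher. DLX2 had -0.88 after depletion and was no longer past 2-fold when centred on ribosomal protein genes. With that centring 3 of the list were at least 2-fold higher on each array, beside 751 of 10347 and 655 of 9359 genes. The 5 nearest protein-coding genes on each side of each cluster gave 26 values after depletion, with a median of -0.23, and 23 after transfection, with a median of -0.07. As deposited, none of these neighbours was past 2-fold. Over all genes, 3.31% were at least 2-fold higher and 1.56% lower after depletion, and 4.09% and 1.37% after transfection. Centred on ribosomal protein genes, 2 of 26 were at least 2-fold higher after depletion, beside 751 of 10347 genes. The neighbours' medians were then 0.08 and 0.16, beside 0.32 and 0.24 over all genes. Beside the HOXA cluster, SKAP2 was the lowest of these neighbours after transfection, at -0.72, and had -0.50 after depletion, while ATP5MC3, beside HOXD, was the highest after transfection at 0.49. SKAP1, beside HOXB, was the lowest after depletion, at -0.996, and ATF2, near HOXD, the highest, at 0.91.

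**Figure D4:**
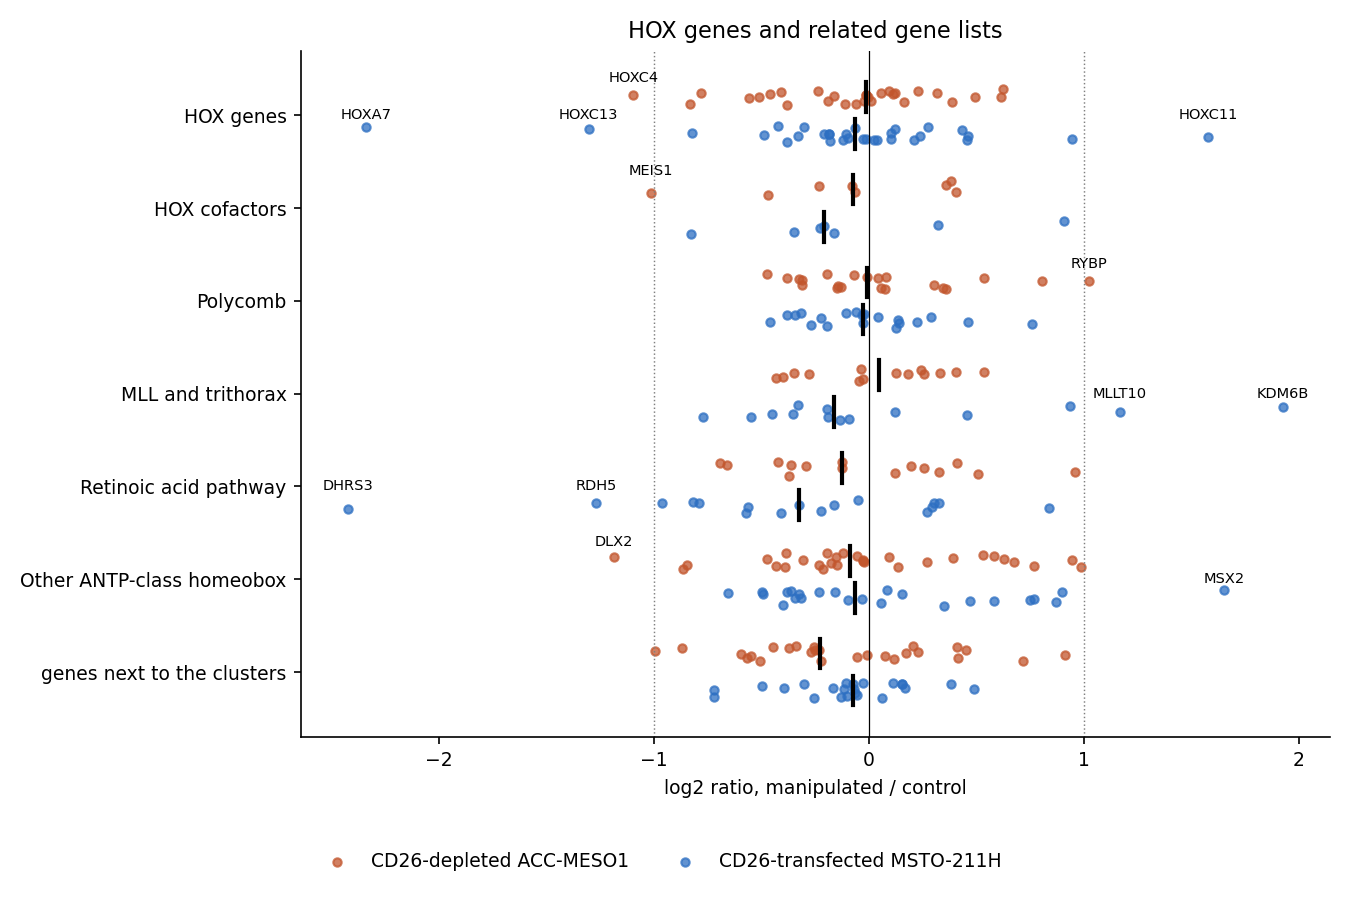
Log2 ratios (horizontal axis, manipulated over control cells) of HOX genes, of 5 related gene lists and of the genes next to the clusters (rows), 1 point a gene, for the depletion array (upper points of a row) and the transfection array (lower points); black bars are medians, dotted lines mark 2-fold, and genes past it are named. Medians run from -0.32 to 0.05, and HOXA7 and DHRS3 are the lowest points.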

How the data were processed

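The deposited values are the authors' normalized log2 ratios of manipulated over control cells from 2-colour arrays, per the labels. How background was corrected, how ratios were normalized and when a probe was left empty were not described in the sources used here. The labels' protocols give TRIZOL extraction, amino allyl amplification and dye coupling. The table held 24267 probes, of which 13395 had 1 gene symbol, 0 several and 10872 none; symbols were updated through RefSeq (GRCh38.p14), which changed 0 HOX symbols. On the depletion array 19622 probes had a value, and 17737 did on the other.

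Probes of a gene were averaged (pandas 2.3.3, Python 3.11.15), and 2-fold means an absolute log2 ratio of 1 or more. Each array is 1 sample of its group, so there was no test. The code for medians, counts and orders was tested on simulated data with planted shifts and far less noise than these arrays. That checks the code and not the precision of the values. Lists of cofactors, Polycomb, MLL and trithorax, retinoic acid, ANTP-class and marker genes were written by hand; members and lists were chosen with earlier results of these data known. The text names every HOX gene with a value, DPP4, and, of each list on an array, members past 2-fold or, with none, the highest and lowest, markers only past 2-fold; KMT2A, PBX4, RARA, RARB, RARG and RXRA were named after their values were seen. Alternatives were other centrings, spreads, probe rules, gene sets, symbols and thresholds.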

Additional observations from a re-analysis of the deposited data

How the results depend on the processing

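Of 258 values recomputed under the alternatives, 240 stayed within the pooled SD between probes, within 1.5 times a count, or within 0.1 of a rho, 18 moved further, and 0 values past 2-fold changed sign. Smaller ones did, in 10 of 136 recomputed log2 ratios and medians. With ribosomal centring, after depletion, the medians of all HOX, HOXA and HOXD and the value of HOXB3 became 0.30, 0.30, 0.29 and 0.12; after transfection, those of all HOX, HOXA, HOXC and HOXC4 became 0.17, 0.05, 0.17 and 0.02. Chromosome centring put the HOXD transfection median at -0.0088. Dividing by a common spread and centring each chromosome moved 0 of 39 values each beyond those limits. Within them, chromosome centring took the HOX genes with opposite signs from 8 to 11. Keeping symbols as listed could move none, as the update changed 0 HOX symbols. Ranking by paralog number could move no rho with position, and nor could a shift or scaling of a whole chromosome or array. The ribosomal shifts of 0.31 and 0.23 were smaller than the pooled SDs of 0.42 and 0.45, so no log2 ratio or median could move past them. Shifts of that size also could not turn the sign of a value past 2-fold. The HOX genes past 2-fold had 1 probe each, so the probe rules could not alter them. Many of the 240 values that stayed were thus fixed in advance. Centred on ribosomal protein genes, 0 HOX genes were at least 2-fold lower after depletion, 2 were at least 2-fold higher after transfection, 3 were below 0 on both arrays, and 27.6% and 25.8% of HOX genes were below 0 on the depletion and transfection arrays. Reading the probe of largest size put HOXA9 at 1.12 and made 2 HOX genes at least 2-fold higher after transfection. Among genes measured on both arrays, rho with position was 0.21 for HOXA and 0.60 for HOXC after depletion and 0.25 for HOXB after transfection. At a log2 threshold of 0.5, 2 HOX genes were higher and 5 lower after depletion and 2 higher after transfection; at 1.5, 0 were lower after depletion and 1 after transfection. Added after seeing the data, HOXA9 by its probe read on both arrays was -0.20 after transfection, and the correlation between the arrays was 0.28 without HOXA7 and 0.02 without HOXA7, HOXC11 and HOXC13. With 1 array per comparison and mostly 1 probe per gene, no difference has a replicate check, and signal over background is unknown.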

Other observations

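The DLX genes, homeobox genes of the face and limb that are relatives of HOX, were named after their values were seen. DLX1, DLX2 and DLX3 had -0.38, -1.19 and -0.86 after CD26 depletion in ACC-MESO1 cells and 0.35, 0.77 and 0.87 after CD26 transfection in MSTO-211H cells, a pair of signs that 22.9% of 8956 genes had. DLX4 had -0.15 and -0.31, and DLX6 had -0.39 after depletion and no value after transfection. DLX1 had -0.08 and DLX3 -0.55 after depletion when centred on ribosomal protein genes. Among the CDX genes, homeobox regulators of HOX clusters in the hindgut, CDX1 (0.94), CDX2 (0.58) and CDX4 (0.99) were above 0 after depletion and had no value after transfection. Of the 1391 named genes measured after depletion but not after transfection, 771 were above 0. Each of these genes had 1 probe.

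HOX genes with a value on the transfection array alone were HOXB8, HOXC12, HOXD9 and HOXD10, and 4 of 4 were above 0. Over all named genes measured on that array alone, 78.4% of 403 were above 0.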
